A study of Mus musculus with 9 samples.

Results

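Beside the matrix metallopeptidase genes Mmp3 and Mmp12 on chromosome 9 of the mouse lie genes that encode no metallopeptidase, and 10 of them are described here, namely Casp1, Casp12, Dync2h1, Dcun1d5, Tmem123, Birc2, Birc3, Yap1, Cfap300 and Arhgap42. They were chosen by their log2 levels and fold changes against HC11-FL, the strain with full length Mkl1, since many transcripts of this stretch had lower levels in both mutant strains. The values of the 10 genes against HC11-FL are therefore a description without a test. Each gene was represented by the probeset annotated to it alone, or by the one with the highest mean where there was more than 1. All 10 had such a probeset (12 probesets in all), among 19937 genes and 34760 probesets of the whole table, and all 10 had a mean log2 expression of at least 4.

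The cells were HC11, a mammary epithelial line from a mid-pregnancy BALB/c mouse, whose p53 gene is mutated. HC11-FL cells expressed full length Mkl1, a coactivator of the serum response factor SRF, HC11-mutB1 cells expressed Mkl1 with a mutated SRF-interaction site, and HC11-ΔSAP cells expressed Mkl1 without its SAP domain, a potential DNA-binding domain. The constructs carried red fluorescent protein and came on top of endogenous Mkl1, so that the control cells overexpressed Mkl1 as well. Each strain was stably transfected, selected with Geneticin and sorted by fluorescence, and the number of separate transfections is not stated. No empty vector strain was arrayed, and how far independently made strains would differ cannot be told from the error. RNA was taken after 48 h in 0.03% FCS without EGF and hybridised to Affymetrix Mouse Gene 1.0 ST arrays, 3 per strain and 9 in all. The titles number the arrays as replicates without saying that they came from separate cultures beyond being grown in triplicate, so p-values measure the spread between these samples, which may be technical.

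The 10 genes share a neighbourhood and not a pathway. Casp1 and Casp12 encode inflammatory caspases, of which caspase-1 cleaves the precursors of interleukin-1β and interleukin-18 in the inflammasome. Birc2 and Birc3 encode the inhibitors of apoptosis cIAP1 and cIAP2, ubiquitin ligases of TNF receptor signalling, and Yap1 encodes the coactivator that the Hippo kinases restrain and that works through TEAD factors. In the mammary epithelium YAP is known for responses to cell density and stiffness, and the cIAPs for keeping TNF signalling from ending in cell death. Only RNA was measured here.

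The stretches before the gene starts are shown for 4 of the genes because neighbours with unlike promoters and unlike patterns are compared further on. Each is the 250 bases before an annotated start in RefSeq (GRCm38.p6), on the minus strand of chromosome 9, written 5′ to 3′. Birc2 has another annotated start, whose window is not shown. Capitals mark GGAATG, a core motif bound by TEAD factors.
Yap1, chr9:8004597-8004846: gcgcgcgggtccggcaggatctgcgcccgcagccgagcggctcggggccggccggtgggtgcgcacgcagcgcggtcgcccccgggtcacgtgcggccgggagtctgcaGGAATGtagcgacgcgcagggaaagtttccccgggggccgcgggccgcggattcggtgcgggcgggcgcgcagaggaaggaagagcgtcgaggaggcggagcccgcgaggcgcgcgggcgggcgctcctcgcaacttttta
Cfap300, chr9:8042876-8043125: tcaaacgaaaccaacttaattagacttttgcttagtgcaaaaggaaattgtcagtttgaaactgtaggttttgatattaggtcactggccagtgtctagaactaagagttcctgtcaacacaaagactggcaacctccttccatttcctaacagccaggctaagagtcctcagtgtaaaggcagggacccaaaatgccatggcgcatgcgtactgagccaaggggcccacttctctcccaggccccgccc
Birc2, chr9:7837058-7837307: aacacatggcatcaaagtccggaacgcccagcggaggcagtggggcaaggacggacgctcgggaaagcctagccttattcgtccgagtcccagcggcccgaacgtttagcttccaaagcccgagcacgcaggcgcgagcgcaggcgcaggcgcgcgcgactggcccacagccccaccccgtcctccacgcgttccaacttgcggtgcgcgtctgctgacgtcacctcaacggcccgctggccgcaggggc
Birc3, chr9:7873171-7873420: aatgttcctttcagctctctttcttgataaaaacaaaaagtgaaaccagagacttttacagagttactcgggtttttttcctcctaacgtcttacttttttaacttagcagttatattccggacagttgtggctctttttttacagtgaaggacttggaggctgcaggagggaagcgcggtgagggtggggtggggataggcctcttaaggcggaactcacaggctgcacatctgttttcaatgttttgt

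All 10 genes had an annotated start in the promoter table, 13 windows in all, since Dcun1d5, Tmem123 and Birc2 have more than 1. On both strands GGAATG was found in 1 of the 13 windows, that of Yap1, 141 bases before the start, and in 12.6% of all 32851 windows of the same length. The CArG box, the sequence bound by SRF, was in 0 of the 13 windows and in 1.47% of all windows. The AP-1 motif TGANTCA was in 0 of 13 and in 6.75% of all, and the kappaB site of NF-kB in 0 of 13 and in 7.25% of all. As this was the only match, no motifs overlapped. The Yap1 window held 44 CpG dinucleotides at a GC content of 76.4%, and that of Birc2 31 at 68.4%. The windows of Birc3 (6 at 43.6%) and Cfap300 (4 at 48%) were closer to the medians of all windows, 6 CpG dinucleotides and 52.4% GC.

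As for the arrays as a whole, the mammary epithelial markers Krt8, Krt18, Krt5, Krt14, Epcam and Cdh1 had strain means of 7.59 to 11.45 on the log2 scale. They differed between the strains, above all the basal keratin gene Krt5 with log2 means of 9.49 for HC11-FL, 10.64 for HC11-mutB1 and 7.59 for HC11-ΔSAP (past all filters in all 3 comparisons). The luminal keratin gene Krt18 had 9.44, 8.78 and 8.08 in the same order and passed all filters between HC11-ΔSAP and HC11-FL. The part of such shifts in the results on the 10 genes was not tested. The 3 endothelial markers stayed between 3.25 and 3.64, below the minimum of 4 that the study set for expression. Of the adipocyte markers, Adipoq had strain means of 2.65 to 2.82, below it, and Plin1 4.57 to 4.66, above it. The Mkl1 probeset (Mrtfa), which does not separate the construct from the endogenous gene, had log2 means of 9.95 ± 0.11 for HC11-FL, 9.83 ± 0.07 for HC11-mutB1, and 9.47 ± 0.07 for HC11-ΔSAP (SD, n = 3). For the protein, the paper describes sorting to similar amounts of tagged Mkl1 and, by Western blot, roughly equal overexpression in these strains. As whole cultures were measured, fewer cells with a transcript and less of it per cell cannot be told apart.

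The strains with mutant Mkl1 had lower levels of Dcun1d5, Tmem123, Birc2, Yap1 and Cfap300. These 5 of the 10 genes passed all filters of the study, which were a limma adjusted p up to 0.01, at least a 2-fold change and a log2 mean no lower than 4, both when HC11-mutB1 and when HC11-ΔSAP was set against HC11-FL. Among all 20286 probesets above the expression minimum, 1.21% were lower by these filters for HC11-mutB1 and 1.51% for HC11-ΔSAP. Casp1 was the 1 gene higher in HC11-mutB1 cells (background 1.65%), and 0 of the 10 were higher in HC11-ΔSAP cells (background 1.49%). As the genes were chosen for these comparisons, nothing is read from the counts. The 10 genes had a median log2 fold change of -1.003 for HC11-mutB1 and -1.036 for HC11-ΔSAP, against -0.02 and -0.01 over all probesets above the minimum. The HC11-FL arrays are shared by both comparisons.

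**Figure D1:**
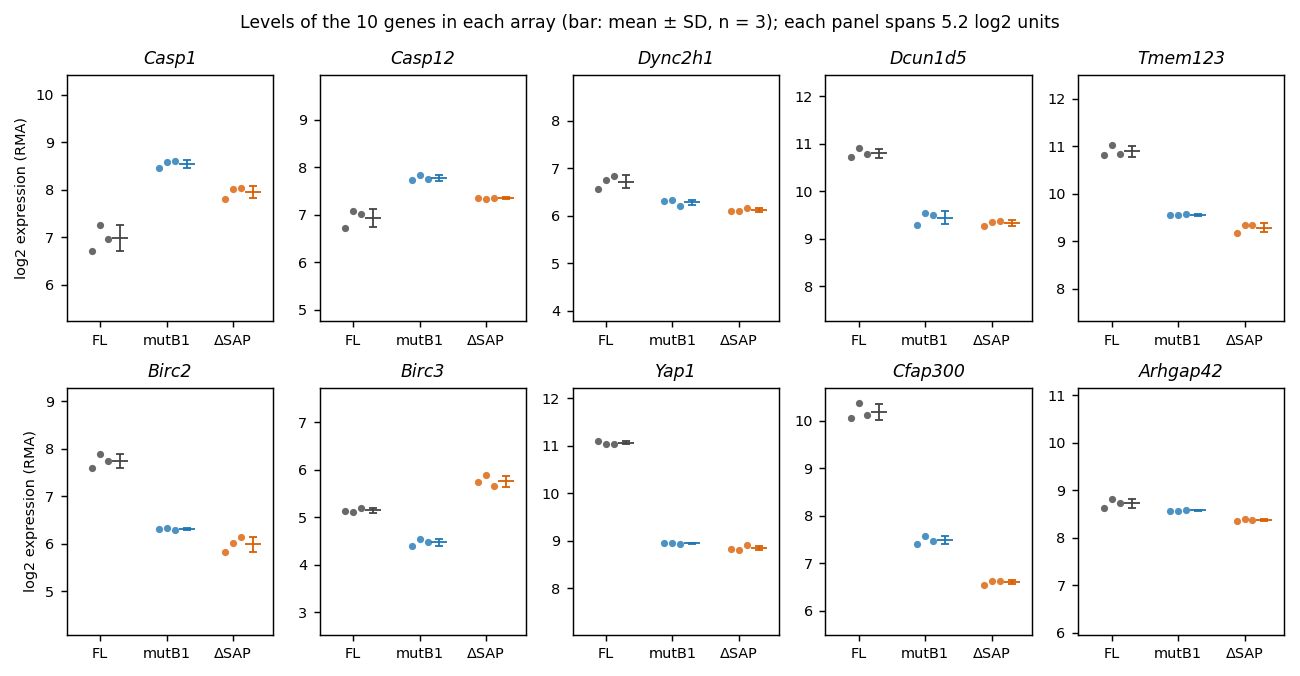
RMA log2 expression of each of the 10 genes (y-axis) in the 3 strains (x-axis), 1 point per array, with the mean ± SD of 3 arrays as a bar beside the points. Every panel spans the same range of log2 units, so the large steps of Yap1 and Cfap300 and the small ones of Dync2h1 and Arhgap42 can be compared by eye, and Casp1 and Casp12 are seen to go the other way.

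Yap1, the Hippo effector, had the largest difference after Cfap300. Its log2 levels were 11.11, 11.04 and 11.05 for HC11-FL, 8.95, 8.96 and 8.93 for HC11-mutB1, and 8.82, 8.81 and 8.90 for HC11-ΔSAP. No array of a mutant strain reached the HC11-FL range, and each strain stayed within a narrow band. The Yap1 transcript was 4.34-fold lower in HC11-mutB1 (log2 fold change -2.12, SE 0.04) and 4.65-fold lower in HC11-ΔSAP cells (-2.22, SE 0.04).

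Cfap300, the next gene in order, is named for a protein of cilia and flagella, and had the largest reduction. Its log2 levels were 10.07, 10.38 and 10.13 for HC11-FL, 7.41, 7.58 and 7.48 for HC11-mutB1, and 6.55, 6.62 and 6.63 for HC11-ΔSAP. The 3 strains formed 3 separate groups, with HC11-ΔSAP the lowest. This was a 6.51-fold reduction in HC11-mutB1 (log2 fold change -2.70, SE 0.09) and a 12.1-fold reduction in HC11-ΔSAP cells (-3.59, SE 0.09).

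Birc2 and Birc3 are paralogues that lie next to each other, and they did not follow the same pattern. Birc2 lay at log2 levels of 7.60, 7.89 and 7.75 for HC11-FL, 6.32, 6.33 and 6.29 for HC11-mutB1, and 5.83, 6.01 and 6.14 for HC11-ΔSAP. It was thus lower in every array of both mutant strains, by 2.70-fold in HC11-mutB1 (log2 fold change -1.43, SE 0.09) and by 3.38-fold in HC11-ΔSAP cells (-1.76, SE 0.09). Birc3 lay at 5.12, 5.10 and 5.19 for HC11-FL, 4.40, 4.54 and 4.47 for HC11-mutB1, and 5.74, 5.88 and 5.65 for HC11-ΔSAP. All HC11-mutB1 arrays were below and all HC11-ΔSAP arrays above the HC11-FL arrays. Birc3 was 1.59-fold lower in HC11-mutB1 (log2 fold change -0.67, SE 0.07) and 1.53-fold up in HC11-ΔSAP cells (0.62, SE 0.07), in both cases under the fold minimum. Birc3 was the only one of the 10 genes with opposite signs in the mutant strains. Whether probes of Birc2 and Birc3 also bind the transcript of the other gene was not tested.

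On the far side of the metallopeptidase genes from Birc2, Dcun1d5 encodes a protein of the DCN1-like family, which helps attach NEDD8 to cullins. Its log2 levels were 10.72, 10.91 and 10.78 for HC11-FL, 9.30, 9.55 and 9.51 for HC11-mutB1, and 9.27, 9.35 and 9.38 for HC11-ΔSAP. The mutant strains overlapped each other and neither overlapped HC11-FL. Dcun1d5 was 2.55-fold lower in HC11-mutB1 (log2 fold change -1.35, SE 0.08) and 2.77-fold lower in HC11-ΔSAP cells (-1.47, SE 0.08). Tmem123, a transmembrane protein gene beside Birc2, lay at 10.81, 11.03 and 10.83 for HC11-FL, 9.54, 9.54 and 9.57 for HC11-mutB1, and 9.17, 9.35 and 9.34 for HC11-ΔSAP. Again all mutant arrays were below all HC11-FL arrays, with a 2.53-fold reduction in HC11-mutB1 (log2 fold change -1.34, SE 0.07) and a 3.03-fold reduction in HC11-ΔSAP cells (-1.60, SE 0.07). Over the 5 genes lower by all filters in both strains, the reductions ran from 2.53-fold to 6.51-fold in HC11-mutB1 and from 2.77-fold to 12.1-fold in HC11-ΔSAP cells.

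Dync2h1, the heavy chain of the dynein-2 motor that carries cargo back from the tip of the cilium, lies next to Dcun1d5 and differed less. Its log2 levels were 6.58, 6.76 and 6.84 for HC11-FL, 6.30, 6.33 and 6.22 for HC11-mutB1, and 6.09, 6.10 and 6.17 for HC11-ΔSAP. The strains did not overlap, but the log2 fold changes were -0.44 (SE 0.07) in HC11-mutB1 and -0.60 (SE 0.07) in HC11-ΔSAP cells, under the fold minimum.

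Arhgap42, which encodes a GTPase-activating protein and is the last of the 10 genes in order, gave values that depended on the probeset. By the brighter probeset, which the rule selects, its log2 levels were 8.62, 8.81 and 8.73 for HC11-FL, 8.57, 8.57 and 8.59 for HC11-mutB1, and 8.35, 8.39 and 8.36 for HC11-ΔSAP. The differences were -0.14 (SE 0.05) in HC11-mutB1 and -0.35 (SE 0.05) in HC11-ΔSAP cells on the log2 scale. The dimmer probeset went from a log2 mean of 8.61 ± 0.15 (SD, n = 3) for HC11-FL to 7.11 ± 0.07 for HC11-mutB1 and 6.81 ± 0.06 for HC11-ΔSAP, which is 2.82-fold and 3.48-fold lower. By the mean of both probesets Arhgap42 passed all filters in HC11-ΔSAP cells (log2 fold change -1.08) but not in HC11-mutB1 cells (-0.82). Birc2 also has another probeset, with means of 6.47, 5.77 and 5.51 in HC11-FL, HC11-mutB1 and HC11-ΔSAP, respectively. It gave the same direction with smaller reductions, 1.62-fold and 1.94-fold, both under the fold minimum. Whether Birc2 passed all filters thus depended on the probeset. By the mean of both probesets its log2 fold change in HC11-mutB1 cells was -1.07, just past the fold minimum.

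**Figure D2:**
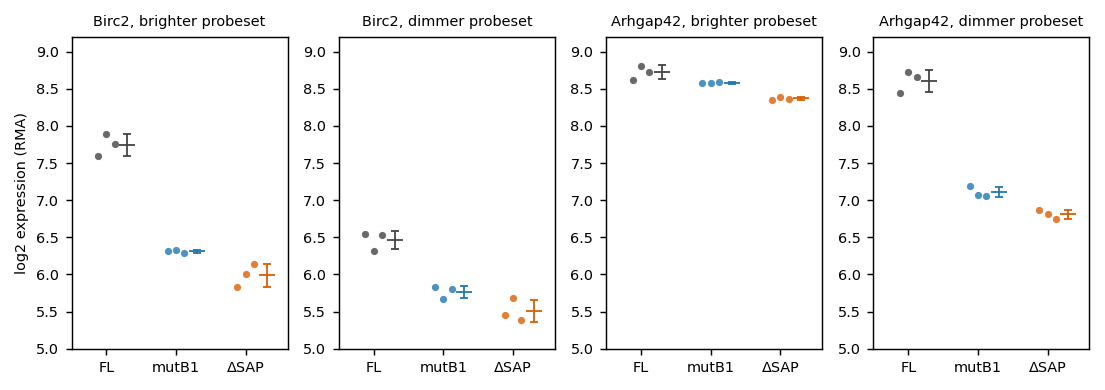
RMA log2 expression (y-axis) of both probesets of Birc2 and both of Arhgap42 by strain (x-axis), 1 point per array, with the mean ± SD of 3 arrays as a bar. The probesets of Birc2 step down in the same order, whereas Arhgap42 differs from HC11-FL by -0.14 and -0.35 on the brighter probeset and by -1.50 and -1.80 log2 units on the dimmer one.

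The caspase genes at the other end of the order were higher and not lower in the mutant strains. Casp1 lay at log2 levels of 6.72, 7.26 and 6.96 for HC11-FL, 8.45, 8.58 and 8.60 for HC11-mutB1, and 7.79, 8.02 and 8.03 for HC11-ΔSAP. All mutant arrays were above all HC11-FL arrays, and HC11-mutB1 was the highest. Casp1 was 2.96-fold up in HC11-mutB1 (log2 fold change 1.57, SE 0.13) and 1.96-fold up in HC11-ΔSAP cells (0.97, SE 0.13), the second value being just under the fold minimum. Without HC11-FL replicate 2 it reached 1.11 and without HC11-ΔSAP replicate 1 it reached 1.05, and passed. Casp12, which is mostly known for its place at the endoplasmic reticulum, lay at 6.72, 7.07 and 7.02 for HC11-FL, 7.74, 7.84 and 7.74 for HC11-mutB1, and 7.36, 7.33 and 7.36 for HC11-ΔSAP. It followed the order of Casp1 with smaller steps of 0.84 (SE 0.09) and 0.41 (SE 0.09) on the log2 scale. Casp4, which lies between them and is not one of the 10 genes, had means of 4.65, 4.52 and 4.62, so this neighbour did not share the pattern. As Casp1 is a gene of macrophages too, leukocyte markers were set beside it. Ptprc and Itgam had strain means of 3.39 to 3.55 and 2.92 to 2.99, below the expression minimum. Csf1r had 4.57 to 4.86, above that minimum. Cd68, a lysosomal protein gene, differed in all 3 comparisons at a limma adjusted p up to 0.01, under the fold minimum. Its means were 7.69, 7.35 and 8.14 in HC11-FL, HC11-mutB1 and HC11-ΔSAP, respectively. The log2 of the summed linear levels of these 4 markers was 7.99, 7.72 and 8.35 in the same order, most of it Cd68, so it is no separate measure of leukocyte content. The probesets of Casp12 and Arhgap42 each hold a value that occurs in more than 1 array of a strain, as 45.2% of all probesets do in some pair of arrays, and their SDs may be too small.

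Of 50 measured genes in the order of GRCm38.p6, those that were at least 2-fold lower in both mutant strains lay between Casp12 and Arhgap42. From Pdgfd to Arhgap42 the array measured 24 genes, and 16 of them had a log2 mean of 4 or more in HC11-FL cells. No further gene of this stretch reached 4 in a mutant strain, the highest strain mean among the other 8 being 3.88. Of the 16 genes, 15 had a lower mean in both mutant strains, the exception being Birc3 in HC11-ΔSAP cells, where 39.5% of all probesets at 4 or more in HC11-FL cells were lower in both. At least 2-fold lower in both were 12 of the 16, against 0.561% of all such probesets, and 9 of the 12 passed all filters in both, as the overall means of Pdgfd, Mmp7 and Cep126 were below 4. Genes such as Pdgfd, a platelet-derived growth factor gene, Cep126, a centrosome gene, and Pgr, the progesterone receptor, were above 4 in HC11-FL cells alone. The ends of this stretch were placed with these fold changes known, and the 16 genes were taken by their HC11-FL level. The counts are therefore a description, and nothing is read from their distance to the shares of all probesets. In HC11-FL, HC11-mutB1 and HC11-ΔSAP, the means of Pdgfd were 4.72, 2.92 and 2.88. In the same order, those of Cep126 were 5.58, 2.83 and 3.03, and those of Pgr 5.18, 3.63 and 3.69. The 8 genes below 4 in HC11-FL had log2 fold changes between -0.20 and 0.07 in HC11-mutB1 and between -0.19 and 0.09 in HC11-ΔSAP cells.

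**Figure D3:**
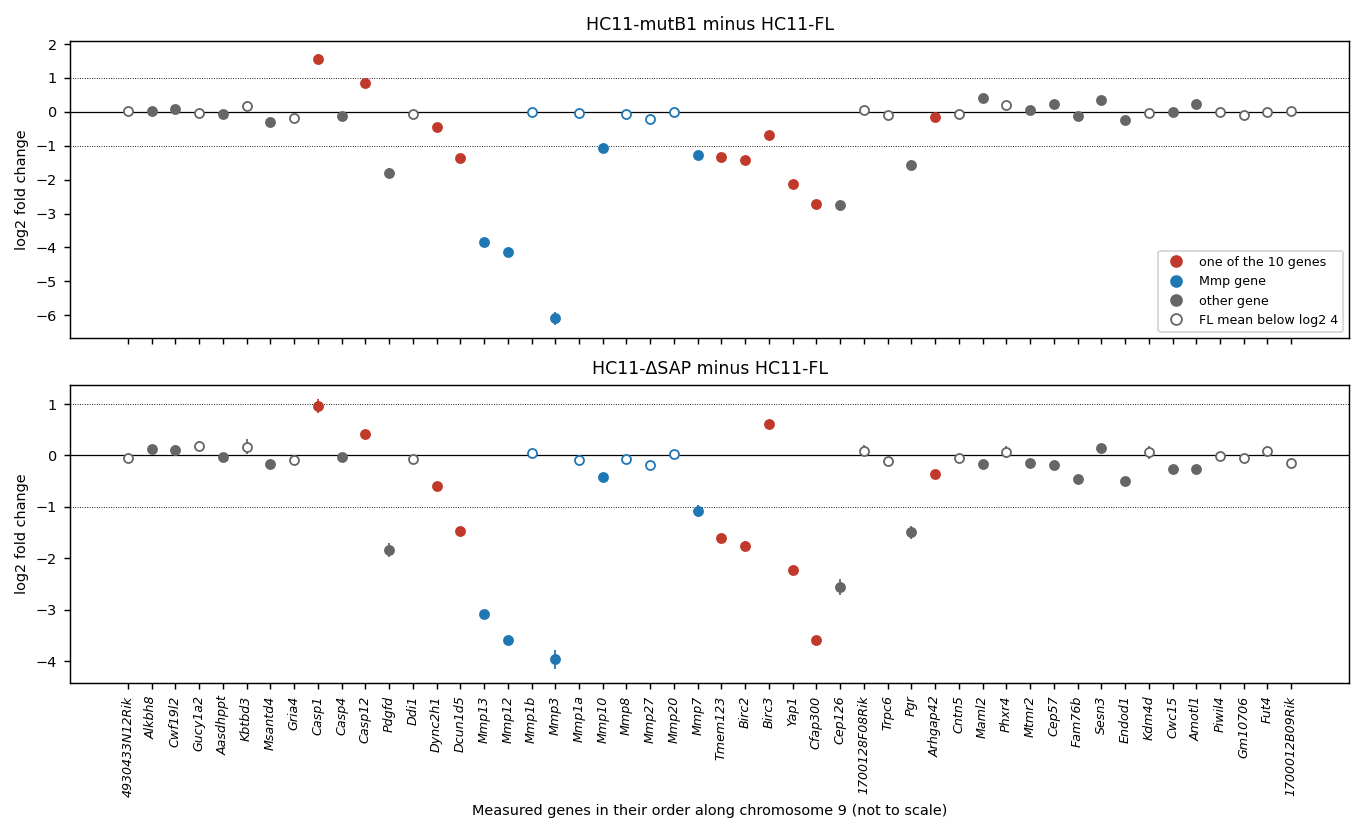
Log2 fold change against HC11-FL (y-axis, mean ± SE) of 50 measured genes in their order along chromosome 9 (x-axis, not to scale), for HC11-mutB1 in the upper and HC11-ΔSAP in the lower panel. Filled points from Pdgfd to Arhgap42 lie below 0 in both panels apart from Birc3 in the lower one, while filled points outside that stretch stay within 1 log2 unit of 0, with the exception of Casp1 in the upper panel. Dotted lines mark 2-fold.

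Beyond this stretch the differences did not reach 2-fold, apart from Casp1 in HC11-mutB1 cells. Of the 8 measured genes before Casp1, where the gene order starts, 4 had a log2 mean of 4 or more, and their log2 fold changes lay between -0.30 and 0.08 in HC11-mutB1 and between -0.16 and 0.13 in HC11-ΔSAP cells. Of the 15 measured genes after Arhgap42, 8 had a log2 mean of 4 or more, and theirs lay between -0.25 and 0.40 and between -0.50 and 0.14. The mean was below that of HC11-FL for 3 of these 8 genes in HC11-mutB1 and for 7 of 8 in HC11-ΔSAP cells. Endod1 (-0.50, SE 0.07) and Fam76b (-0.47, SE 0.06) were further below HC11-FL in HC11-ΔSAP cells than Arhgap42 by its brighter probeset (-0.35, SE 0.05), so in that strain lower values did not end at Arhgap42. By its dimmer probeset Arhgap42 was at -1.80 (SE 0.08) in these cells, further below than either gene. None of these 12 passed the filters in limma in either comparison. Among the metallopeptidase genes between Dcun1d5 and Tmem123, Mmp13, Mmp12, Mmp3, Mmp10 and Mmp7 were measured above 4 in HC11-FL cells. Their log2 fold changes ran from -1.08 (Mmp10) to -6.09 (Mmp3) in HC11-mutB1 and from -0.41 (Mmp10) to -3.97 (Mmp3) in HC11-ΔSAP cells. Means fell below 4 for Mmp3 in HC11-mutB1 (3.65) and for Mmp7 in HC11-mutB1 (3.19) and HC11-ΔSAP (3.39), so these fold changes are less certain in size. Mmp1a, Mmp1b, Mmp8, Mmp27 and Mmp20, which lie among the metallopeptidase genes named, stayed below 4 in all 3 strains.

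The direct comparison of the mutant strains was tested. Its estimate uses no HC11-FL value, although it equals the difference between the fold changes that chose the genes, and the HC11-FL arrays enter its error through the fit to all 9 arrays. By all filters 1 of the 10 genes, Birc3, was higher in HC11-ΔSAP cells (background 1.16%) and 0 were lower (background 1.7%) by limma. At an unadjusted p below 0.05 without a fold minimum, 1 was higher and 7 were lower, where 18.2% and 19.5% of all probesets above the minimum were higher and lower. Birc3 was 2.44-fold higher (log2 fold change 1.29, 95% interval 1.13 to 1.44, limma adjusted p = 8.5e-06, and 3.3e-04 with the 6 arrays of the mutant strains alone), with all 3 HC11-ΔSAP arrays above all 3 HC11-mutB1 arrays. At any fold, Cfap300 was also lower in HC11-ΔSAP cells, by 1.85-fold (log2 fold change -0.89, 95% interval -1.09 to -0.69, limma adjusted p = 2.4e-04, and 5e-04 with the 6 arrays alone), in all 3 arrays. This makes 1 lower and 1 higher of 10, where 8.45% and 7.25% of all probesets above the minimum were lower and higher at any fold. The median difference was -0.24 over the 10 genes and 0.01 over all probesets above the minimum. With 3 arrays against 3, the two-sided exact permutation p was 0.1 for 9 of the genes, the smallest possible, and 0.3 for Dcun1d5.

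For the other 8 genes the direct difference did not pass limma. That of Yap1 was -0.10 on the log2 scale (95% interval -0.20 to -0.00, adjusted p = 0.19) and that of Dcun1d5 -0.12 (-0.30 to 0.07, adjusted p = 0.44). These intervals lie within 2-fold in either direction. They do not allow for the choice of the genes by lower levels in both mutant strains, so no difference is called excluded. Birc2 differed by -0.32 (-0.54 to -0.10, adjusted p = 0.059), Tmem123 by -0.26 (-0.43 to -0.09, adjusted p = 0.048) and Arhgap42 by -0.21 (-0.33 to -0.09, adjusted p = 0.034). Casp1 was 1.51-fold below its HC11-mutB1 level in HC11-ΔSAP cells (-0.60, -0.91 to -0.29, adjusted p = 0.019) and Casp12 1.34-fold (-0.43, -0.63 to -0.22, adjusted p = 0.013), both short of the threshold of 0.01. Over the 20 alternative settings, the adjusted p of Casp1 ran from 0.0057 to 0.067 and that of Casp12 from 0.001 to 0.053, so that some settings called them, among them the fit to the 6 arrays of the mutant strains alone, the fit without HC11-FL replicate 1 for both genes, and that without HC11-FL replicate 2 for Casp1. Dync2h1 differed by -0.16 (-0.33 to 0.00, adjusted p = 0.21).

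**Figure D4:**
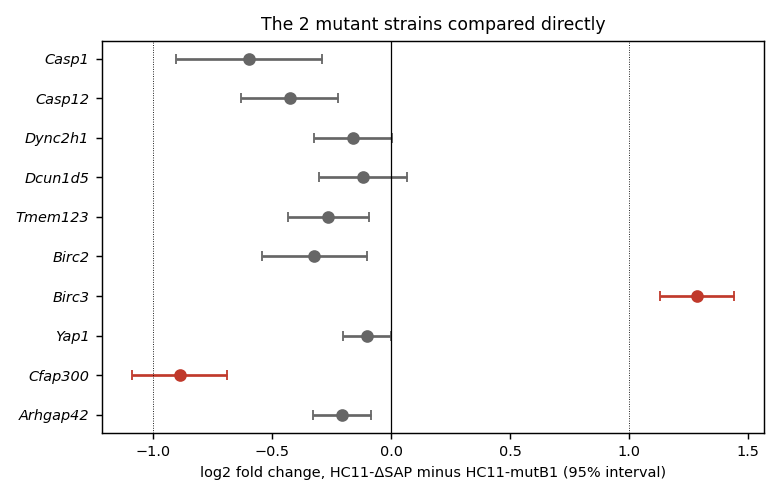
Log2 fold change of HC11-ΔSAP over HC11-mutB1 cells (x-axis, point and 95% interval of the limma fit over 3 arrays per strain) for the 10 genes (y-axis, in chromosomal order), with dotted lines at 2-fold. Birc3 at 1.29 and Cfap300 at -0.89 (red) passed an adjusted p of 0.01, and the other intervals lie between -0.91 and 0.07.

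The partners of these genes elsewhere in the genome were counted from lists of the pathways, without the 10 genes themselves, at a limma adjusted p up to 0.01 whatever the fold. By this rule 8.32% of all probesets above the minimum were lower and 11.9% higher in HC11-mutB1, and 10.1% lower and 11.9% higher in HC11-ΔSAP cells. Of 15 Hippo kinases, adaptors and TEAD factors, 0 were lower and 4 higher in HC11-mutB1, and 2 lower and 3 higher in HC11-ΔSAP cells (median log2 fold change 0.06 and -0.05, against -0.02 and -0.01 over all probesets). At an unadjusted p below 0.05, the first comparison had 5 lower and 6 higher, where 20.3% of all probesets above the minimum were lower and 22.7% higher. Wwtr1, which encodes TAZ, the paralogue of Yap1, rose 1.48-fold in HC11-mutB1 (adjusted p = 5e-05) and 1.44-fold in HC11-ΔSAP cells (adjusted p = 6.9e-05). Vgll4, a competitor of Yap1 for TEAD factors, fell 1.66-fold in HC11-ΔSAP cells (adjusted p = 2.3e-05).

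Of 21 target genes of YAP and TEAD factors, 8 were lower and 9 higher in HC11-mutB1 (median log2 fold change -0.10), and 4 lower and 7 higher in HC11-ΔSAP cells (median 0.15). They had no common direction in either strain, while Yap1 itself was 4.34-fold and 4.65-fold lower. Set directly against HC11-mutB1, HC11-ΔSAP cells had 5 of the targets lower and 6 higher, where 8.45% and 7.25% of all probesets above the minimum were lower and higher. Ankrd1, an ankyrin repeat protein gene, had means of 9.87, 9.01 and 9.74 in HC11-FL, HC11-mutB1 and HC11-ΔSAP, respectively, and fell 1.82-fold in HC11-mutB1 (adjusted p = 1.2e-04). Ccn2, the connective tissue growth factor gene, had means of 9.15, 8.80 and 10.04 and rose 1.85-fold in HC11-ΔSAP cells (adjusted p = 5.4e-05). It was also 2.35-fold above its HC11-mutB1 level in HC11-ΔSAP cells (adjusted p = 1.1e-05). The binding protein gene Igfbp3 rose 2.68-fold (adjusted p = 6.6e-07) and the growth factor gene Tgfb2 2.02-fold (adjusted p = 1.3e-05) in HC11-ΔSAP cells. Both also rose in HC11-mutB1 cells, 1.66-fold and 1.73-fold (limma adjusted p = 1.9e-05 and 4.7e-05). In HC11-mutB1 cells the RNA-binding protein gene Rbms3 rose 3.38-fold (adjusted p = 2.9e-05) and the forkhead gene Foxf2 2.17-fold (adjusted p = 1.7e-04). These targets are named for the size of their changes, and other targets fell in both strains. Amotl2 was 1.66-fold lower in HC11-mutB1 and 1.46-fold lower in HC11-ΔSAP cells (limma adjusted p = 3.4e-04 and 0.0014). Nuak2 was 1.32-fold and 1.57-fold lower in the same order (limma adjusted p = 0.0089 and 6.6e-04).

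Of 20 further genes of the inhibitors of apoptosis and TNF receptor signalling, 1 was lower and 8 were higher in HC11-mutB1, and 1 was lower and 4 were higher in HC11-ΔSAP cells (median log2 fold change 0.17 and 0.10). Traf2, whose protein binds both cIAPs, rose 1.40-fold in HC11-mutB1 cells (adjusted p = 8.9e-04), and the deubiquitinase Cyld rose 1.42-fold (adjusted p = 4.9e-04) and Tnfaip3, an inhibitor of NF-kB, 1.41-fold (adjusted p = 2.2e-04), both in HC11-ΔSAP cells. Cyld and Tnfaip3 also rose in HC11-mutB1 cells, 1.32-fold and 1.22-fold (limma adjusted p = 0.0019 and 0.0042). Birc5, survivin, which also acts in mitosis, rose 1.78-fold in HC11-mutB1 (adjusted p = 3.3e-04) and fell 1.36-fold in HC11-ΔSAP cells (adjusted p = 0.0082), the reverse of the order seen for Birc3. Of 13 inflammasome genes only 5 had a log2 mean of 4 or more, and of these 0 were lower and 1 higher in HC11-mutB1 (Naip2, 1.57-fold, adjusted p = 0.0083), while 0 passed in either direction in HC11-ΔSAP cells. At an unadjusted p below 0.05, 0 of the 5 were lower and 2 higher in each strain, where 20.3% and 21.4% of all probesets were lower and 22.7% and 21.3% higher in HC11-mutB1 and HC11-ΔSAP.

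Of 27 genes of the dynein-2 motor and of transport in the cilium, the partners of Dync2h1, 2 were lower and 3 higher in HC11-mutB1, and 3 lower and 5 higher in HC11-ΔSAP cells (median log2 fold change -0.04 and 0.01). Kif3b, a subunit of the kinesin that moves cargo to the tip, rose 1.49-fold and 1.67-fold (adjusted p = 2.3e-05 and 6.2e-06), and Ift88 fell 1.43-fold in HC11-mutB1 cells (adjusted p = 0.0043). Of 19 genes of cullin neddylation, 2 were lower and 3 higher in HC11-mutB1, and 3 lower and 2 higher in HC11-ΔSAP cells (medians -0.08 and -0.12). Nae1, a subunit of the NEDD8-activating enzyme, rose 1.74-fold and 1.58-fold (adjusted p = 2.8e-04 and 7.2e-04), and Nedd8 fell 1.44-fold in HC11-mutB1 cells (adjusted p = 1.4e-04).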

How the data were processed

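Affymetrix Mouse Gene 1.0 ST arrays of 9 RNA samples, 3 per strain, were analysed. The authors deposited log2 expression values of 34760 probesets, normalised by RMA, and the submitters' processing notes list affy and R 2.10.0. RMA brings the arrays to 1 distribution, so differences are relative to the other transcripts of an array. Scans were not used here, and the number of arrays limits the precision. Of the probesets, 21640 were annotated to 1 gene, 1321 to several and 11799 to none listed, and the last 2 kinds were left out of gene values. Current symbols and gene order came from RefSeq (GRCm38.p6), without coordinates, since the array table names no build. Each gene was represented by the probeset with the highest mean.

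Differences between strains were fitted with limma 3.58.1 (R 4.3.3) to all 9 arrays, and the Benjamini-Hochberg adjustment covered all probesets. The fit has 6 residual and 1.93 prior degrees of freedom and was tested on simulated data. The filters were those of the study, given above. Named are the 10 genes, the metallopeptidase genes and neighbours in gene order, and the 3 genes most alike in pattern. List genes are named if among the 3 largest changes of a comparison. Amotl2 and Nuak2 were added as targets lower in both mutant strains. Tests were limited to the comparison of the mutant strains and to list genes. The 10 genes and the lists were chosen with earlier results of these data known. The counts of 1 list are not reported here. Alternatives covered the expression minimum, the thresholds, the normalisation, the arrays fitted, the variance model, the replicate number as a block, the choice of probeset and each array left out.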

Additional observations from a re-analysis of the deposited data

Results flagged for a closer look

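Birc3 differed between the mutant strains in opposite directions from HC11-FL. All 3 HC11-mutB1 arrays were below and all 3 HC11-ΔSAP arrays above the HC11-FL arrays, and the direct difference was 1.29 on the log2 scale (limma adjusted p = 8.5e-06).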

How the results depend on the processing

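Most settings left the counts of the 10 genes where they were. With no fold minimum, both comparisons with HC11-FL had 7 genes lower and 2 higher, and between the mutant strains 1 was lower in HC11-ΔSAP. Leaving out 1 array moved the number higher in HC11-ΔSAP cells between 0 and 1. The 1 was Casp1, without HC11-FL replicate 2 or without HC11-ΔSAP replicate 1. The numbers lower stayed at 5 in both comparisons with HC11-FL and at 0 between the mutant strains in these fits. The counts against HC11-FL rest on the values that chose the genes, so nothing is read from their stability. No log2 fold change of the 10 genes turned its sign under any setting. With the replicate number as a block, the counts were 5 lower and 1 higher in HC11-mutB1, 5 lower and 0 higher in HC11-ΔSAP, and 0 lower and 1 higher between them. The block also brought the direct difference of Casp1 to an adjusted p of 0.0078 in limma, with a range of 0.0057 to 0.067 over the settings. Birc3 ranged from 3.6e-06 to 3.3e-04 and Cfap300 from 9.3e-05 to 0.0017, and both had an adjusted p under 0.01 in all 20 settings. Whether the numbers pair the arrays is not settled. Deviations of arrays with the same number correlated between -0.11 and 0.26 (median 0.055), and those with unlike numbers between -0.26 and 0.23 (median -0.005). With the mean of all probesets of a gene, 6 genes were lower in HC11-ΔSAP cells, Arhgap42 being added, and the cause of the difference between its probesets was not tested. Birc3, at a log2 mean of 5.12, was the gene nearest to the expression minimum.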

Other observations

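For the 5 genes lower by all filters in both mutant strains, the transcripts most alike in pattern were sought among 1467 further genes with a mean log2 level of at least 4 and a range of at least 1 over the arrays. Likeness was Pearson's r over the 9 arrays. As there are only 3 strains, any transcript high in HC11-FL and about equally low in both others gets a high r, and the values describe a shape. Tmem123 and Birc2 were each other's nearest gene (r = 0.998), and these were the only matches from the same stretch of chromosome 9. Mbnl3, a splicing factor gene, was among the nearest 3 of Dcun1d5, Tmem123 and Birc2 (r = 0.993, 0.997 and 0.996), with log2 means of 10.68 for HC11-FL, 9.57 for HC11-mutB1 and 9.37 for HC11-ΔSAP. Nearest to Yap1 were Igf2bp1, an RNA-binding protein gene (r = 0.999, means 7.35, 4.45 and 4.36), Steap2 (r = 0.995) and Myc (r = 0.995, means 11.20, 9.90 and 9.97). Nearest to Cfap300 were the peptide transporter gene Slc15a2 (r = 0.997, means 9.71, 6.82 and 5.61), the imprinted gene Peg3 (r = 0.997) and the glycolytic enzyme gene Pfkl (r = 0.997). Dcun1d5 was closest to Prkar2b (r = 0.998) and Kitl (r = 0.995).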
